A study of Mus musculus with 12 samples.

Results

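Ly6 proteins are small surface proteins of lymphoid and myeloid cells, and 7 genes for such surface proteins of T cells were described here across 12 RNA-seq libraries of sorted mouse T cells: Ly6a, Ly6c1, Ly6c2, Ly6d, Ly6e, Ly6k and Thy1. They are 7 of the 26629 gene rows of the deposited FPM table, whose values are counts scaled to the library's total over genes. They were chosen by their measured levels in these libraries, so their levels are a description and carry no test.

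Proteins of the Ly6 family share a compact fold held together by disulfide bonds, with loops that extend from it like fingers, and most are fixed to the outer membrane by a glycosylphosphatidylinositol (GPI) anchor. Several are used as surface markers that separate naive, memory and progenitor stages of lymphocytes, and several are known to be induced by interferons. Thy1 (CD90) is GPI-anchored as well but has an immunoglobulin fold, so it is not a Ly6 protein by structure.

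All cells came from C57BL/6 mice with both alleles of Lrf floxed, and the study compared mice without Cd4-Cre (control) and with it (KO). Lrf, named Zbtb7a in the tables, encodes a zinc finger transcription factor, and Cd4-Cre is a recombinase active in developing T cells from the stage with both CD4 and CD8. IELp, the thymic precursors of intraepithelial lymphocytes, came from control and from KO mice and were gated as TCRβ-positive cells lacking CD4 and CD8α, with CD122 and H-2Kb, high CD5 and PD-1 and no CD44. The other groups were CD45-positive, TCRβ-positive CD8αα T cells, which carry CD8α without CD8β, as intraepithelial lymphocytes (IEL) of control mice and from the spleen of KO mice. Each group had 3 libraries. The labels give no age and no animal for a library, and they name no treatment of any group. The control carries no Cre, so an effect of the recombinase itself cannot be told apart from the loss of Lrf. Control spleen cells and KO IEL were not analysed here, so in the comparisons with spleen the tissue and the genotype cannot be told apart, or the tissue and the stage of the cells. In control IEL against control IELp, the tissue and the stage cannot be told apart either. The deposited samples of the IELp and of the CD8αα cells were numbered in separate blocks. Any difference in handling between them cannot be told apart from the stage.

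The libraries held between 13432598 and 19947734 counts in genes. Zbtb7a was between 42.0 and 50.8 FPM in KO IELp against 68.5 to 80.7 FPM in control IELp, and between 59.1 and 63.4 FPM in KO spleen cells against 101 to 119 FPM in control IEL. It was lower in both comparisons (log2 fold change -0.71 ± 0.10 (SE), adjusted p = 1.56e-04, and -0.98 ± 0.08 (SE), adjusted p = 4.16e-06, edgeR quasi-likelihood test). Which exons were floxed was not stated in the labels. Across tested genes this test called 6.48% higher and 6.58% lower in KO against control IELp, 31.9% and 32.9% in control IEL against control IELp, 29.1% and 29.2% in KO spleen cells against control IEL, and 22.6% and 22.4% in KO spleen cells against KO IELp. FPM are scaled to the total alone, and relative to TMM scaling, which centres the bulk of genes, they shift log2 ratios by -0.02, -0.23, 0.12 and -0.11 in these 4 comparisons. On the unscaled FPM plus 1, limma put 42.8%, 34.7%, 59.4% and 35.4% of its calls on the higher side in the same order, where edgeR put 49.6%, 49.2%, 49.9% and 50.3%.

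The 6 Ly6 genes lie together on chromosome 15 (GRCm38, the build called mm10 in the processing notes) between 74762056 and 75111970, a stretch of 349.915 kb with 13 protein-coding genes. In order along the chromosome they are Ly6d, Ly6k, Ly6e, Ly6a, Ly6c1 and Ly6c2, and Ly6e alone among them is on the plus strand. Thy1 lies apart, on the plus strand of chromosome 9 at 44043384 to 44048579. Ly6k overlaps an annotated antisense gene, Gm17189. Whether counting used the strand was not stated, so reads from the stretch that both cover cannot be told apart.

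Ly6c1 (chromosome 15, 75044018 to 75048830) and Ly6c2 (75108158 to 75111970), both on the minus strand, are near-identical neighbours that encode the Ly6C antigen of monocytes and memory T cells. Their longest protein-coding transcripts are 844 and 822 bases and matched at 97.6% of 822 aligned bases. Of all windows of 76 bases, the read length, in their protein-coding transcripts, 18.5% for Ly6c1 and 20.5% for Ly6c2 also occur in another gene. The share was 5.87% for Ly6a, shared with Ly6c1 and Ly6i, 24.3% for Ly6k, shared with Gm17189, and 0% for Ly6d, Ly6e and Thy1. The split of reads between Ly6c1 and Ly6c2 is therefore uncertain. Their promoters are less alike, and since the pair is near-identical in transcript but far apart in counts in KO spleen cells the 250 bases before the farthest upstream RefSeq start of each are shown here, 5′ to 3′ in GRCm38, with bases that are identical in the alignment of the pair in capitals. The first is chr15:75048838-75049087 and the second chr15:75111972-75112221, both read on the minus strand.

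Ly6c1: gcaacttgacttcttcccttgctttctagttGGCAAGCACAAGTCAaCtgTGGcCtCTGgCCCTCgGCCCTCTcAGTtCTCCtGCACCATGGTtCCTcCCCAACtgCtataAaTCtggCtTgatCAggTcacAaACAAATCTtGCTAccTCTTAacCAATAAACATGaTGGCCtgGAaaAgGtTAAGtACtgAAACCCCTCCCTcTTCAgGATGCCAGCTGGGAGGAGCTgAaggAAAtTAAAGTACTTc

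Ly6c2: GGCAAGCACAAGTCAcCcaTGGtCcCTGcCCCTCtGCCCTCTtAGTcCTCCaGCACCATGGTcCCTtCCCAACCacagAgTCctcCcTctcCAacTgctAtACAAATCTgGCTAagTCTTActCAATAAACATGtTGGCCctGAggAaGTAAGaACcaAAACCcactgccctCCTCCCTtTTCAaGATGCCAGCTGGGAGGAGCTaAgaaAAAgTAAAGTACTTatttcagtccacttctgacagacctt

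Of 216 aligned bases of the pair, 164 (75.9%) were identical. RefSeq promoters were found for these 2 of the 7 members, with 4 windows of 250 bases before and 50 after a start. None of the 4 held TTTCNNTTTC, the core of the interferon-stimulated response element, which 3.44% of all 32851 promoters hold on either strand. None held TTCNNNGAA, the gamma-activated site (8.30% of promoters), or CCGGAA, a core bound by ETS factors (14.9%). The E box CANNTG, which 72.3% of promoters hold, occurred 4 and 2 times in the windows of Ly6c1 and 2 times in each of Ly6c2. These matches describe the letters only.

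Ly6c2 set the KO spleen cells apart from all other groups. Its level was 765, 757 and 740 FPM in the 3 KO spleen libraries, 8.39, 7.64 and 7.14 FPM in control IELp, 3.37, 3.25 and 3.38 FPM in KO IELp, and 0.0614, 0.322 and 0.217 FPM in control IEL. The order was KO spleen, control IELp, KO IELp and control IEL, and no neighbours in it overlapped. The mean in KO spleen cells, 754 ± 12.6 FPM (SD, n = 3), was 226-fold that of KO IELp (log2 ratio of mean FPM 7.82 ± 0.02 (SE)). Against control IEL the ratio was 3768-fold. It rests on 10 counts in the IEL libraries together, so its 95% counting interval is 2064 to 7916. KO IELp had 0.431 times the mean level of control IELp (log2 ratio -1.21 ± 0.07 (SE)), and control IEL 0.0259 times (log2 ratio -5.27 ± 0.55 (SE)).

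Ly6c1 stayed near the limit of detection. It had 1, 1 and 2 counts in the control IELp libraries, 0, 3 and 9 in KO IELp, none in control IEL, and 16, 7 and 9 in KO spleen cells. In FPM this is 0.802, 0.371 and 0.670 in KO spleen cells and at most 0.475 elsewhere, and the KO spleen and KO IELp libraries overlapped. No count among 50224500 in the control IEL libraries allows a level of up to 0.0597 FPM, by a floor of 3 counts over the group. Against that floor KO spleen cells were at least 10.3-fold higher. Per kb of the longest coding transcript, the mean level in KO spleen cells was 917 FPM for Ly6c2 and 0.728 FPM for Ly6c1. With the counts of the pair summed, the same groups as for Ly6c2 alone did not overlap.

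Ly6e (chromosome 15, 74955051 to 74959905), a widely expressed Ly6 protein first known from thymocytes and later for its part in virus entry, was the most abundant member in 3 of the 4 groups. Its level was 328, 352 and 345 FPM in control IELp, 218, 218 and 219 FPM in KO IELp, 652, 639 and 719 FPM in control IEL, and 724, 729 and 711 FPM in KO spleen cells. KO IELp were lowest, then control IELp, and both mature groups were above both precursor groups without overlap. The KO spleen and control IEL libraries overlapped, with means of 721 ± 9.60 and 670 ± 43.2 FPM (SD, n = 3). KO IELp had 0.639 times the mean of control IELp (log2 ratio -0.65 ± 0.03 (SE)). Control IEL had 1.96 times the mean of control IELp (log2 ratio 0.97 ± 0.06 (SE), or 1.20 with TMM scaling), and KO spleen cells 3.31 times that of KO IELp (log2 ratio 1.72 ± 0.01 (SE), or 1.84 with TMM scaling).

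Ly6e made up between 93.6% and 99.7% of the summed FPM of the 7 members in every library other than those of KO spleen cells. There Ly6c2 supplied between 50.2% and 50.6% of the sum and Ly6e between 47.9% and 48.4%. Per kb of the longest coding transcript, Ly6c2 in KO spleen cells (mean 917 FPM) was above Ly6e (mean 316 FPM). Per kb of all annotated exons the means were 275 and 191 FPM, in the same order.

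**Figure D1:**
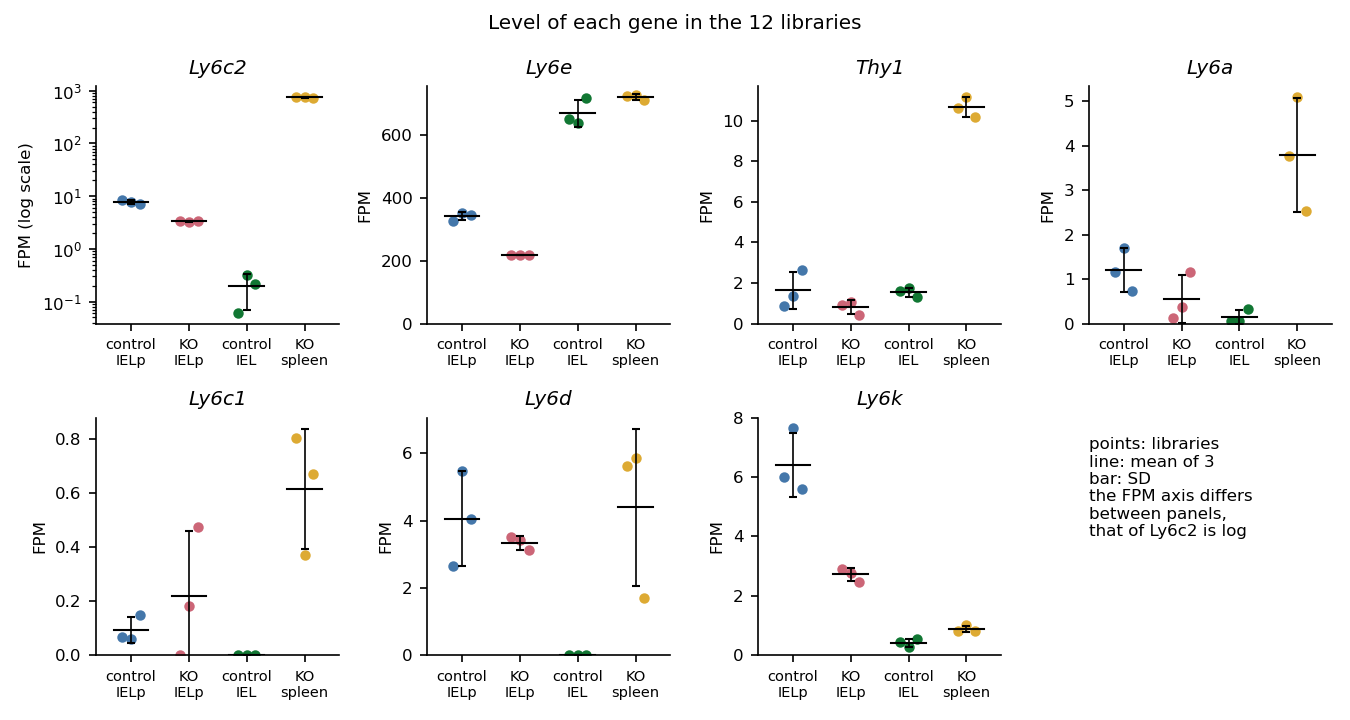
Level of each gene in FPM (vertical axes, log scale for Ly6c2 only) in the 3 libraries of each group (points), with the mean (line) and SD (bar). Ly6c2 spans from 0.0614 FPM in control IEL to 765 FPM in KO spleen cells, while the lowest level of Ly6e is 218 FPM.

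Thy1, the GPI-anchored marker of mouse T cells and thymocytes, was low throughout. It was at 0.887, 1.35 and 2.65 FPM in control IELp, 0.924, 1.08 and 0.422 FPM in KO IELp, 1.60, 1.74 and 1.30 FPM in control IEL, and 10.6, 11.2 and 10.2 FPM in KO spleen cells. The KO spleen libraries were above all others and the other 3 groups overlapped each other, apart from KO IELp and control IEL, whose libraries did not. The mean of KO spleen cells was 6.90-fold that of control IEL (log2 ratio 2.79 ± 0.13 (SE)) and 13.2-fold that of KO IELp (log2 ratio 3.72 ± 0.36 (SE)). Cd3e, which encodes a subunit of the T cell receptor complex, was between 927 and 2294 FPM in the same libraries. Per kb of the longest coding transcript, the mean of Cd3e in KO spleen cells was 646 FPM and that of Thy1 6.15 FPM. No other annotated gene overlaps Thy1, and all of its windows of 76 bases are its own. The cause of the low level was not tested.

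Ly6a (chromosome 15, 74994877 to 74998031, minus strand), the Sca-1 antigen of stem cells and activated T cells, was highest in KO spleen cells as well. Its level was 3.76, 5.08 and 2.53 FPM there, 1.16, 1.71 and 0.736 FPM in control IELp, 0.132, 0.361 and 1.16 FPM in KO IELp, and 0.0614, 0.0643 and 0.326 FPM in control IEL. KO spleen libraries were above all others, control and KO IELp overlapped, as did KO IELp and control IEL, and control IELp lay above control IEL. The mean in KO spleen cells was 25.2-fold that of control IEL, whose libraries held 8 counts in all (95% counting interval 12.3 to 57.8). It was 6.88-fold that of KO IELp (log2 ratio 2.78 ± 0.86 (SE)). Control IEL had 0.125 times the mean of control IELp (log2 ratio -3.00 ± 0.91 (SE)). Without control IEL replicate 3 the log2 ratio of Ly6a was -4.25 for control IEL over control IELp and 5.91 for KO spleen cells over control IEL. Without KO IELp replicate 3 it was 3.94 for KO spleen cells over KO IELp, and KO IELp lay below control IELp with no overlap (log2 ratio -2.28).

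Ly6d (chromosome 15, 74762056 to 74763620, minus strand), a marker of early B lineage commitment that thymocytes also carry, had no count in control IEL. It was at 2.66, 5.47 and 4.05 FPM in control IELp, 3.50, 3.43 and 3.11 FPM in KO IELp, and 5.61, 5.88 and 1.71 FPM in KO spleen cells. These 3 groups overlapped, and KO spleen replicate 3 was the lowest of their 9 libraries. With no count in control IEL and the floor of 3 counts over the group, control IELp were at least 68.0-fold higher and KO spleen cells at least 73.7-fold higher.

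Ly6k (chromosome 15, 74796874 to 74799986, minus strand), known mainly from the testis and sperm, was the only member with its highest level in control IELp. Its level was 6.00, 7.64 and 5.60 FPM in control IELp, 2.90, 2.77 and 2.48 FPM in KO IELp, 0.802, 1.01 and 0.819 FPM in KO spleen cells, and 0.430, 0.257 and 0.543 FPM in control IEL. The groups fell in that order and no neighbours overlapped. KO IELp had 0.424 times the mean of control IELp (log2 ratio -1.24 ± 0.16 (SE)), and control IEL 0.0639 times (log2 ratio -3.97 ± 0.32 (SE)). The antisense gene Gm17189 was at 3.21, 4.47 and 4.20 FPM in control IELp, 1.32, 1.81 and 1.85 FPM in KO IELp, 0.737, 0.0643 and 0.326 FPM in control IEL, and 0.802, 1.06 and 0.893 FPM in KO spleen cells. It too was highest in control IELp, and how much of either value came from the other strand was not tested.

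Counted over the 4 comparisons, the members divided as follows. In KO against control IELp, 0 of 7 were higher and 3 were lower without overlap between the libraries (Ly6c2, Ly6e and Ly6k), where 12.9% of all tested genes were higher and 16.8% lower without overlap. In control IEL against control IELp, 1 was higher (Ly6e) and 5 were lower (all but Ly6e and Thy1), against 24.6% and 46.3% of all tested genes. Ly6c1 counts among these 5 with 4 counts in all. Against control IEL, KO spleen cells had 6 higher and 0 lower, with Ly6e overlapping, against 39.2% and 26.9%. Against KO IELp, they had 4 higher (Ly6a, Ly6c2, Ly6e and Thy1) and 1 lower (Ly6k), against 20.4% and 36.0%. The members were chosen on these values, so nothing is read from the counts against those shares, and 6 of the 7 passed the filter on low counts in each comparison, Ly6c1 in none. Each group enters 2 of the comparisons, so the counts are not independent of each other. Without control IELp replicate 1, the lower members in KO IELp were 5, with Ly6d and Thy1 added. Ly6e no longer overlapped between KO spleen cells and control IEL without replicate 3 of either group, where it was higher in KO spleen cells. Between KO spleen cells and KO IELp, Ly6d no longer overlapped without KO spleen replicate 3, nor did Ly6c1 without KO spleen replicate 2 or KO IELp replicate 3.

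**Figure D2:**
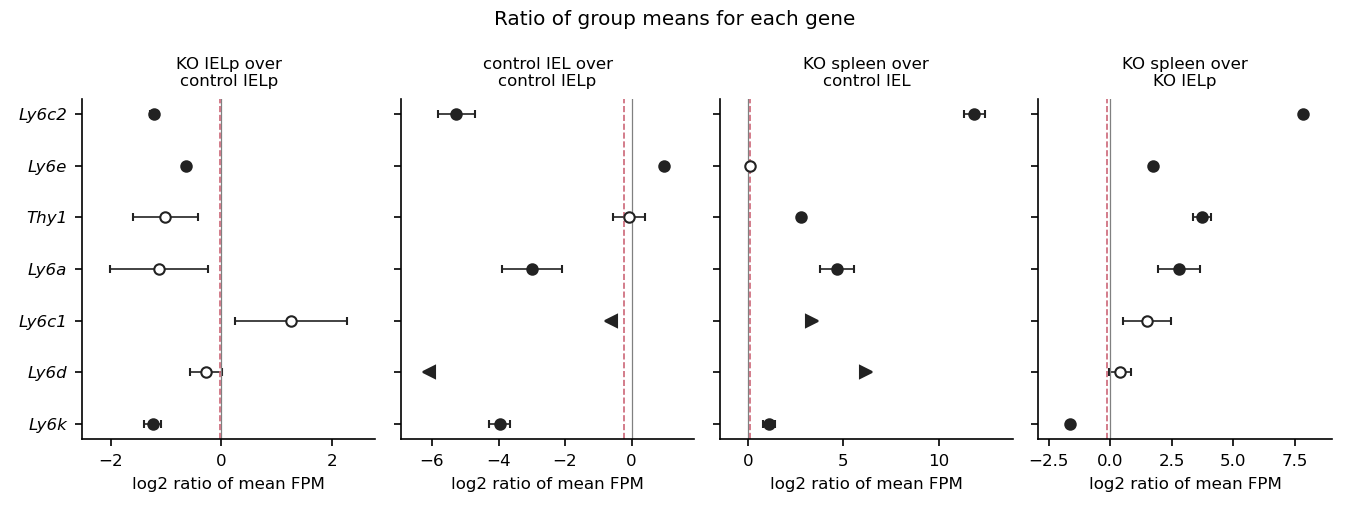
Log2 ratio of mean FPM (horizontal axes, which differ between panels) for each gene in the 4 comparisons, with SE as bars; filled points mark groups whose libraries did not overlap, open points those that did, triangles bounds against a floor of 3 counts, and the dashed line the median of all tested genes. Ly6c2 lies at -1.21, -5.27, 11.88 and 7.82 from left to right, and Ly6e at -0.65, 0.97, 0.11 and 1.72.

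The sorted cells were checked for markers of other cells that express Ly6 genes, since Ly6C is carried by monocytes and Ly6D by B cells. The 8 T cell markers were found in every group, with summed levels between 5081 and 8252 FPM. The 8 B cell markers summed to 183 to 222 FPM in KO spleen cells, with none at 0, against 22.8 to 23.2 FPM in control IELp, 17.98 to 21.9 FPM in KO IELp and 40.3 to 67.8 FPM in control IEL. Much of the sum in KO spleen cells came from Cd22 (91.3, 115 and 94.0 FPM), while Ms4a1 (CD20) was at 13.7, 11.8 and 12.5 FPM. Ms4a1 was at 0 in the 9 other libraries.

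The 10 markers of monocytes and macrophages summed to 48.9 to 77.6 FPM in KO spleen cells, with none at 0, against 24.97 to 28.2 FPM in control IELp, 25.1 to 29.3 FPM in KO IELp and 27.9 to 31.8 FPM in control IEL. Adgre1, the F4/80 antigen of macrophages, was at 0 in the 9 other libraries. Csf1r made up much of each sum, at 34.5 to 38.8 FPM in KO spleen cells and 17.3 to 23.8 FPM elsewhere. Some markers went the other way. Ccr2 was at 1.85, 1.11 and 1.56 FPM in KO spleen cells against 3.48, 3.23 and 5.30 FPM in control IELp. Cd68 was at 5.56, 4.08 and 3.28 FPM in KO spleen cells against 7.56, 7.66 and 7.88 FPM in control IEL. Within the KO spleen libraries replicate 3 was lowest in several of these markers. Lyz2, the lysozyme of myeloid cells, was at 13.5, 20.0 and 3.50 FPM in replicates 1, 2 and 3. As a percent of the highest of the 3, replicate 3 was at 96.8% for Ly6c2, 29.1% for Ly6d, 49.8% for Ly6a, 17.5% for Lyz2, 41.5% for Adgre1 and 61.1% for Cd79a. Other markers of the same lists fell less there, with Ms4a1 at 91.4% and Cd22 at 81.9%. Csf1r was at 38.8, 37.8 and 34.5 FPM in replicates 1, 2 and 3. The part of such cells in the levels of Ly6c2, Ly6d and Ly6a was not tested. The 8 neutrophil markers summed to at most 3.56 FPM in any library. Among them Csf3r was at 2.31, 2.01 and 0.372 FPM in KO spleen cells and at 0 in the 9 other libraries. S100a8, S100a9 and Camp were likewise found only in KO spleen libraries, at no more than 0.702 FPM. Ltf went the other way, at 0 in KO spleen cells and up to 2.72 FPM elsewhere. The 7 listed markers of plasmacytoid dendritic cells were mixed. They summed to 130 to 135 FPM in KO spleen cells and 267 to 323 FPM in control IEL, where Ccr9 alone was at 265, 263 and 211 FPM. Pld4 was at 36.6, 35.2 and 40.7 FPM in KO spleen cells and at most 4.64 FPM elsewhere. Siglech and Klk1 were at 0 in KO spleen cells. The part of these cells in the levels of the members was not tested.

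**Figure D3:**
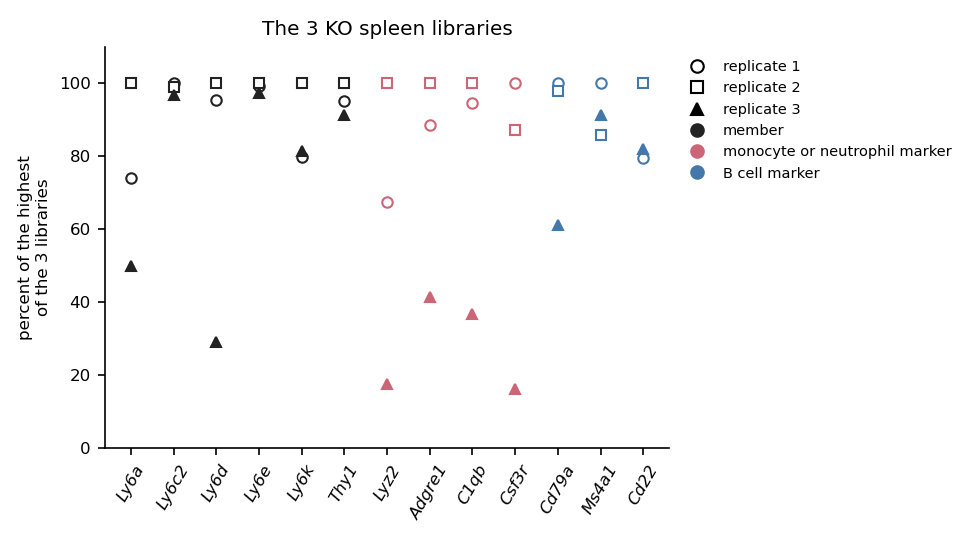
Level in each of the 3 KO spleen libraries as a percent of the highest of the 3 (vertical axis), for 6 members (black), markers of monocytes, macrophages or neutrophils (red) and of B cells (blue). In replicate 3 (filled triangles) Ly6c2, Ly6e and Thy1 are at 96.8%, 97.4% and 91.3%, Ly6d is at 29.1%, Lyz2 at 17.5% and Ms4a1 at 91.4%.

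In control IEL, gut epithelial markers summed to 519, 574 and 701 FPM. Most of this sum was Cdh1 (369, 421 and 400 FPM) and Epcam (123, 127 and 189 FPM). Epcam was also between 55.3 and 67.0 FPM in the IELp libraries. Other markers of the list were low in IEL replicates 1 and 2, such as Krt19 (0.369 and 0.129 FPM) and Fabp1 (2.33 and 1.80 FPM). Muc2 was at 0 in all control IEL. Replicate 3 stood apart in Krt8 (22.6 FPM against 1.35 and 1.54 FPM). Ly6a was highest in that replicate among the IEL libraries, at 0.326 FPM on 6 counts, and so was Ly6e, at 719 FPM. The sum of the T cell markers was highest there too, at 8252 FPM against 7565 and 7172 FPM, though Cd247 was lowest there (115 FPM). The part of epithelial cells in the levels of Ly6a and Ly6e was not tested. Of the endothelial markers, Cdh5, Kdr, Tie1 and Tek were at 0 in all 12 libraries. Double-positive thymocyte markers, of which 5 of 9 were at 0 in all control IEL, summed to 101 to 121 FPM in control IELp, 113 to 115 FPM in KO IELp, 38.0 to 64.6 FPM in control IEL and 146 to 172 FPM in KO spleen cells. Themis alone was at 143, 134 and 153 FPM in KO spleen cells, where Rag1, Rag2 and Ptcra were at 0. These are bulk samples, in which fewer cells of a type and less RNA per cell cannot be told apart.

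The other relatives of the Ly6 and urokinase receptor (uPAR) family were sparse. Of 44 listed genes that are no members, 40 were in the count table, 27 had a count, and 5 or 6 passed the filter in a comparison. In KO against control IELp, 0 rose and 1 of 6 fell, where 6.48% and 6.58% of all tested genes did. The list median log2 fold change was -0.09 against -0.01 for all tested genes. The gene that fell was Lypd6b, which encodes a GPI-anchored protein of the family, at 0.985 ± 0.387 against 3.95 ± 0.486 FPM (SD, n = 3; log2 fold change -1.97 ± 0.34 (SE), edgeR adjusted p = 0.00111). In control IEL against control IELp, 2 of 6 rose and 1 fell, where 31.9% and 32.9% of all tested genes did (median -0.12 against -0.01). Plaur, the urokinase receptor itself, was at 0 in all control IEL libraries and between 2.66 and 3.59 FPM in control IELp, at least 53.8-fold higher there. Of the 6 tested in KO spleen cells against control IEL, 1 rose and 2 fell, where 29.1% and 29.2% of all tested genes did (median -0.12 against 0.00). Plaur, at 9.06 ± 0.561 FPM (SD, n = 3) in KO spleen cells, was at least 152-fold higher there. With limma on log2(FPM + 1), 2 relatives rather than 1 were higher and 1 rather than 2 lower in this comparison. In KO spleen cells against KO IELp, 3 of 5 rose and 1 fell, where 22.6% and 22.4% of all tested genes did (median 1.64 against 0.00). Lypd6b rose from 0.985 to 7.29 FPM (log2 fold change 2.98 ± 0.32 (SE), edgeR adjusted p = 6.14e-06). Cd59a, an inhibitor of the complement attack complex, fell from 2.03 to 0.229 FPM (log2 fold change -2.91 ± 0.80 (SE), edgeR adjusted p = 0.00928). Its KO spleen libraries were at 0, 0.688 and 0 FPM. With DESeq2, 3 relatives were higher and 0 lower in KO spleen cells against KO IELp.

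Genes that make and remodel the GPI anchor, which nearly all members carry, were listed as well. Of 32 tested genes, 0 rose and 2 fell in KO against control IELp, where 6.48% and 6.58% of all tested genes did (median -0.08 against -0.01). These were Pigc, a subunit of the enzyme of the first step of anchor synthesis, with a log2 fold change of -0.85 ± 0.15 (SE, edgeR adjusted p = 0.00157), and Tmem8 (log2 fold change -0.64 ± 0.14 (SE), edgeR adjusted p = 0.0073). In control IEL against control IELp 12 of 32 rose and 9 fell, where 31.9% and 32.9% of all tested genes did (median -0.01 against -0.01). Gpaa1, a subunit of the transamidase that attaches the anchor, rose from 47.4 ± 5.72 to 117 ± 0.700 FPM (SD, n = 3). Of the 32 genes in KO spleen cells, 5 rose and 12 fell against control IEL (median -0.16 against 0.00), where 29.1% and 29.2% of all tested genes did. Against KO IELp 7 rose and 4 fell (median 0.06 against 0.00), where 22.6% and 22.4% of all tested genes did. The majority direction of this list depended on the scaling. With limma on log2(FPM + 1), 8 were higher and 14 lower in control IEL against control IELp, 8 and 6 in KO spleen cells against control IEL, and 5 and 8 against KO IELp. Gpaa1 fell to 36.9 FPM against control IEL (log2 fold change -1.78 ± 0.08 (SE), edgeR adjusted p = 6.75e-08). Piga, the catalytic subunit of the first step, rose from 10.6 to 26.5 FPM.

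Among other GPI-anchored proteins of lymphocytes, 1 of 16 tested genes rose and 7 fell in KO against control IELp, where 6.48% and 6.58% of all tested genes did. The median log2 fold change was -0.38 against -0.01. H2-Q7, a nonclassical MHC protein (Qa-2), fell from 192 ± 38.8 to 79.2 ± 0.707 FPM (SD, n = 3; log2 fold change -1.26 ± 0.11 (SE), edgeR adjusted p = 2.52e-06). Cd52, a small lymphocyte glycoprotein, fell from 174 to 105 FPM (log2 fold change -0.71 ± 0.09 (SE), edgeR adjusted p = 8.40e-05). In control IEL against control IELp 5 of 15 rose and 8 fell, where 31.9% and 32.9% of all tested genes did (median -0.45 against -0.01). Cd24a, a marker of immature thymocytes, fell from 64.3 to 0.204 FPM, and Cd48, a ligand of the receptor 2B4, rose from 271 to 445 FPM. In KO spleen cells 5 of 13 rose and 4 fell against control IEL (median 0.02 against 0.00), where 29.1% and 29.2% of all tested genes did. Against KO IELp 6 of 16 rose and 9 fell (median -0.43 against 0.00), where 22.6% and 22.4% of all tested genes did. Cd52 rose to 486 ± 14.0 FPM (SD, n = 3) against 105 FPM in KO IELp (log2 fold change 2.32 ± 0.05 (SE), edgeR adjusted p = 6.29e-13). Nt5e (CD73), which makes adenosine outside the cell, fell from 426 FPM in control IEL to 91.9 FPM in KO spleen cells (log2 fold change -2.34 ± 0.08 (SE), edgeR adjusted p = 9.51e-09).

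Interferon signalling genes were included because Ly6a, Ly6c2 and Ly6e are known to respond to interferons. In KO against control IELp, 2 of 17 tested genes rose and 5 fell, where 6.48% and 6.58% of all tested genes did (median -0.15 against -0.01). Usp18, an interferon-induced protease that dampens the type I receptor, fell from 27.9 to 15.6 FPM (log2 fold change -0.82 ± 0.15 (SE), edgeR adjusted p = 0.00149). The factor Irf7 fell from 90.1 to 59.6 FPM (log2 fold change -0.57 ± 0.09 (SE), edgeR adjusted p = 4.13e-04). Without control IELp replicate 1, or without KO IELp replicate 2, 4 genes rather than 7 were called. In control IEL against control IELp, 12 of 18 rose and 5 fell, where 31.9% and 32.9% of all tested genes did (median 0.79 against -0.01). Irf8 rose from 38.4 to 249 FPM while Usp18 fell to 3.66 FPM. Of 18 genes in KO spleen cells, 8 rose and 7 fell against control IEL (median 0.11 against 0.00), where 29.1% and 29.2% of all tested genes did. Against KO IELp 14 rose and 1 fell (median 0.95 against 0.00), where 22.6% and 22.4% of all tested genes did. Ifngr1, a chain of the interferon gamma receptor, rose from 319 to 1278 FPM against KO IELp (log2 fold change 2.11 ± 0.04 (SE), edgeR adjusted p = 1.83e-13). The gene that fell was Ifngr2, the other chain of that receptor, from 30.7 to 2.31 FPM (log2 fold change -3.66 ± 0.20 (SE), edgeR adjusted p = 8.89e-09). Usp18 rose from 3.66 FPM in control IEL to 40.3 FPM in KO spleen cells (log2 fold change 3.33 ± 0.14 (SE), edgeR adjusted p = 2.34e-08).

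**Figure D4:**
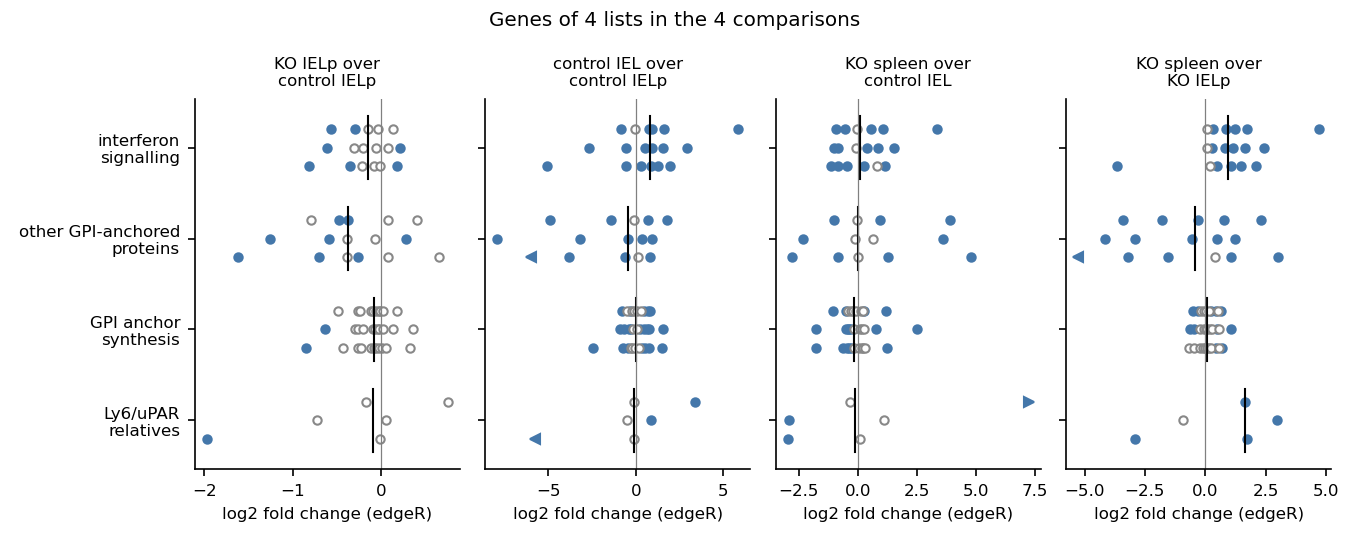
Log2 fold change in edgeR (horizontal axes, which differ between panels) of each tested gene of 4 lists in the 4 comparisons; filled blue points passed an adjusted p of 0.05, open points did not, triangles are bounds for genes at 0 in a group, and black lines are list medians. The interferon list has its median at 0.79 and 0.95 in the panels of IEL over IELp and of spleen over KO IELp, and the median of the anchor synthesis list lies between -0.16 and 0.06 in all 4.

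The genes whose levels followed a member most closely were ranked by Pearson's r of log2(FPM + 1) over the 12 libraries, among 9425 genes that reached 10 FPM in a group. For Ly6c2 they were Gramd3 (r = 0.9979), Eomes (r = 0.9968), a T-box factor of memory and cytotoxic T cells, and Sidt1 (r = 0.9955). The mean of Eomes was 92.2 FPM in KO spleen cells and 5.32, 4.00 and 1.04 FPM in control IELp, KO IELp and control IEL. For Ly6e they were H2-Q7 (r = 0.9908), Hopx (r = 0.9906) and Myl12b (r = 0.9890). For Thy1 they were Il18rap (r = 0.9672), a chain of the interleukin 18 receptor, Ctla2a (r = 0.9651) and Wipf1 (r = 0.9648). The 12 points share 4 groups, so these values describe mainly the order and distance of 4 group means.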

How the data were processed

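Sorted cells (40000 in each sample) gave RNA for paired reads of 76 bp, per the labels. The submitters' processing notes name the build mm10 and, with no order, HTSeq, STAR, Trimmomatic, DESeq2 and bcl2fastq 2.17; annotation and strand setting: not given in the sources used here. The authors deposited counts for 48663 gene rows and 5 summary rows, and these summary rows were left out of all totals. Between 39.0% and 41.2% of reads fell in genes, 41.5% to 45.5% in no feature and 13.1% to 18.8% aligned in several places. The authors deposited FPM values for the 26629 genes with a count, which equal CPM of the gene total. All FPM values (100%) gave whole reads within 0.001, and edgeR on those reads, an alternative added after seeing the data, called 1911 genes in KO against control IELp, as on the counts.

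Pairs of groups were compared in edgeR 4.0.16 (R 4.3.3) by its quasi-likelihood F test (2-sided, filterByExpr, TMM, Benjamini-Hochberg adjustment over all tested genes, threshold 0.05), tested on simulated counts first. Members were described by ratios of mean FPM, SEs from the spread of the libraries, and whether libraries overlapped; a group at 0 was set to a floor of 3 counts over the group, which covers counting error only, as do the 95% intervals. The reads carry no molecular identifiers. The labels do not say that replicates are separate animals, so p-values cover only the spread of these samples, which may be technical.

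The members and lists were chosen with earlier results of these data known. Named genes are the members, Zbtb7a, a part of up to 4 genes per list and comparison with the smallest adjusted p and a group mean of at least 1 FPM, and the 3 genes most like each member that reached 10 FPM in a group. Cd3e and the cell type markers named, Gm17189 and the examples picked among these were chosen with their values in view. Positions and transcripts come from GENCODE M21 (GRCm38), and promoter sequences from RefSeq (GRCm38.p6). Alternatives were median of ratios size factors, DESeq2 1.42.0, no filter, a single fit of 12 libraries, a block for the replicate number, limma 3.58.1 on log2 FPM plus 1 or 0.1, Ly6c1 and Ly6c2 summed, and leaving out each library.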

Additional observations from a re-analysis of the deposited data

Results flagged for a closer look

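For Ly6a and Ly6c2 the libraries of the CD8αα cells lay on opposite sides of those of the precursors in the KO and in the control mice. Ly6c2 had a log2 ratio of mean FPM of 7.82 for KO spleen cells over KO IELp and of -5.27 for control IEL over control IELp. Ly6a had 2.78 and -3.00 in the same order. The difference was not tested for these members, and tissue and genotype cannot be told apart in it.

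The same opposite sides were seen for listed genes, with log2 ratios of mean FPM of 0.60 and -1.01 for Piga, -1.88 and 0.59 for Nt5e, 0.69 and -3.47 for Izumo1r, 0.74 and -0.27 for Jak1 (with TMM scaling 0.85 and -0.04, edgeR adjusted p = 0.501 for the latter), 1.37 and -2.93 for Usp18, and 1.05 and -0.79 for Ifnar2. For Plaur the ratio was 1.54 in KO cells, and control IEL were at 0. For each gene the log2 change from control IELp to control IEL was set against that from KO IELp to KO spleen cells. The difference between these changes had an adjusted p in edgeR of 3.93e-05 for Piga, 2.51e-11 for Nt5e, 8.39e-09 for Izumo1r, 6.49e-09 for Jak1, 2.07e-10 for Usp18, 7.71e-09 for Ifnar2 and 1.22e-08 for Plaur, with all 3 libraries of each group on the side given in FPM. These genes were picked for opposite sides in the same libraries, so the p-values are no independent support. Tissue and genotype cannot be told apart in the difference.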

How the results depend on the processing

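Leaving out 1 library moved the genes called in KO against control IELp, 1911 with all libraries, between 1239 and 1810, with 1270 without control IELp replicate 2, and for KO IELp 1239 with replicate 2 left out and 1265 with replicate 3 left out. Fewer libraries enter these fits. The interferon signalling genes called there went from 7 to between 4 and 7, and the members without overlap from 3 to between 3 and 5. With no filter on low counts, which tests more genes, 7 relatives of the Ly6 and uPAR family rather than 3 were called both in control IEL against control IELp (4 higher, 3 lower) and in KO spleen cells against control IEL (2 higher, 5 lower). No clear pairing of samples by replicate number was detected: correlations of deviations lay between -0.06 and 0.14, and in no comparison were all 3 over 0.1. All 3 were positive in control IEL against control IELp and in KO spleen cells against KO IELp. With 3 libraries in a group, these values cannot show that samples were unpaired. With the replicate number as a block, 1541, 9566, 8160 and 6549 genes were called in the 4 comparisons against 1911, 9639, 8660 and 6700 without it. Of 240 alternative values for member folds, 220 stayed within the spread of the replicates, 20 moved further, and none reversed a fold whose groups did not overlap. For Ly6e in KO spleen cells against control IEL, whose libraries overlapped, the log2 ratio of 0.11 became -0.01 with TMM or median of ratios scaling. Without 1 library, the ratio of Thy1 in control IEL against control IELp ran from -0.37 to 0.47 and that of Ly6c1 in KO against control IELp from -0.02 to 1.84. Depth limits Ly6a, Ly6c1, Ly6c2 and Ly6d in control IEL, at 10 or fewer counts over the 3 libraries.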

Other observations

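Lypd8, a GPI-anchored relative of the family made by gut epithelium, was at 14.1 FPM in control IEL replicate 3, at 0.553 and 0.257 FPM in the other IEL libraries, and at 0 in all others. The same replicate had the highest Krt8 and Krt19 (22.6 and 22.0 FPM). It was left out of the tests by the filter on low counts. Pecam1 (CD31), an endothelial marker that T cells also carry, made up most of the endothelial sum in the IELp, where it was at 143, 137 and 105 FPM in control and 81.8, 83.0 and 83.2 FPM in KO libraries. Ly6g, the neutrophil marker of the Ly6 family, was at 0 in the 9 libraries other than those of KO spleen cells and at 0.201, 0.159 and 0.149 FPM there.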
